A study of Mus musculus with 14 samples.

Results

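The mitochondrial ribosomal protein genes of mouse embryonic stem (ES) cells are described here across an mTOR inhibition time course. They were taken as every gene whose symbol is Mrps or Mrpl followed by a number and at most 1 letter, which gave 78 of 54446 gene identifiers, 29 named for the small subunit (Mrps) and 49 for the large subunit (Mrpl). RNA-seq was performed on E14 cells, a male mouse ES line, cultured in serum and LIF on gelatin without feeder cells and sorted before RNA extraction. Wild-type (WT) cells were collected at 0, 24, 72 and 144 h of the mTOR inhibitor INK128 (mTORi), which brings ES cells into a dormant state related to embryonic diapause, and Tet1/2 double knockout (DKO) cells at 0, 24 and 72 h. The 0 h groups were untreated cells of the same genotype. The DKO cells were a single Cas9 clone grown from 1 sorted cell, with guides against exons of Tet1 and Tet2, so that clone and genotype cannot be told apart. Each of the 7 groups had 2 replicates, 8 WT and 6 DKO libraries in all, and p-values measure only the spread between these samples, which may be in part technical.

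The mitochondrial ribosome translates the few proteins that the mitochondrial genome encodes, all of them subunits of the respiratory chain and ATP synthase. Its rRNAs come from mitochondrial DNA, whereas all of its proteins are encoded in the nucleus, made by cytosolic ribosomes and imported. The small subunit binds and decodes the mRNA, and the large subunit holds the peptidyl transferase centre and the exit tunnel, which faces the inner membrane. mTOR signalling is known to favour both cytosolic protein synthesis and the expression of nuclear-encoded mitochondrial proteins.

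Symbols and structure did not match for every gene. Mrps30 and Mrps18a are named for the small subunit but their proteins sit in the large subunit, and Mrps36 encodes a component of the alpha-ketoglutarate dehydrogenase complex. By structure there were 30 large-subunit proteins with bacterial counterparts, 21 large-subunit proteins particular to mitochondria, 16 conserved and 10 mitochondrial small-subunit proteins, and Mrps36. The genes were spread over 17 chromosomes, with 11 on chromosome 11. All 78 were protein coding. Transcript length was taken as that of the longest annotated transcript of each gene. Its median was 1866.5 bases for the members, against 3299 for all protein-coding genes tested.

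Promoter sequence was available for 69 of the 78 genes, as 75 windows from 250 bases before to 50 bases after a RefSeq transcription start (build GRCm38.p6). The windows were searched on both strands for the letters CCGGAAG (ETS factors, a family that includes the GABP complex of mitochondrial gene promoters), GCGCATGC (NRF1, a regulator of respiratory genes) and AAGATGGC (YY1). Stretches of the 80 bases before the start, written 5′ to 3′ on the strand of the gene, are shown for Mrpl36 and Mrpl34, which were among the genes with the largest falls, for Mrpl22, whose stretch holds both ETS and NRF1 letters, for Mrpl58 and Mrpl43, and for Mrpl3, which fell least at 144 h. Capitals mark the ETS, NRF1 and YY1 letters on either strand, and the capitals at the last bases of Mrpl58 open a match that runs past the start.
Mrpl36: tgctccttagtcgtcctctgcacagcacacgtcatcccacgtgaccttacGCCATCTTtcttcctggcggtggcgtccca
Mrpl34: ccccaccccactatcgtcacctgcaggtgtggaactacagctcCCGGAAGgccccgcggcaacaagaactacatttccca
Mrpl22: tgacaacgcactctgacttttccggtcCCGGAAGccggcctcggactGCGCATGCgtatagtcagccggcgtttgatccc
Mrpl58: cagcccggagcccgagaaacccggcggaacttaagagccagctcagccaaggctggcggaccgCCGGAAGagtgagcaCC
Mrpl43: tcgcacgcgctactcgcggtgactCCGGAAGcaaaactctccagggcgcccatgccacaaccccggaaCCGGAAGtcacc
Mrpl3: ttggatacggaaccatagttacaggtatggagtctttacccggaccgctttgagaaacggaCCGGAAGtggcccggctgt
They lie at chr13:73330929-73331008 (+) for Mrpl36, chr8:71464846-71464925 (+) for Mrpl34, chr11:58171584-58171663 (+) for Mrpl22, chr11:115403672-115403751 (+) for Mrpl58, chr19:45006443-45006522 (-) for Mrpl43 and chr9:105053188-105053267 (+) for Mrpl3. Mrpl34, Mrpl43 and the choice of these stretches were made after values were seen.

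The ETS letters stood in 34.7% of the member windows, against 16.8% of 13861 windows of other tested genes and 8.86% of all 32851 windows. The YY1 letters stood in 16% of member windows, against 4.16% and 2.75%, and 8 of their 12 matches lay after the start. The NRF1 letters stood in 10.7%, against 5.14% and 2.71%. Of the other letter strings searched, CACGTG (E-box) stood in 9.33% of member windows, against 9.96% and 7.15%, and CCAAT in 40%, against 38.3% and 37.4%. GGGCGG (GC box) stood in 52%, below the 61.2% of other tested genes and above the 35.7% of all windows. The shares are descriptions, a match is not a binding site, and several windows belong to 1 gene or share a promoter with another gene.

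**Figure D1:**
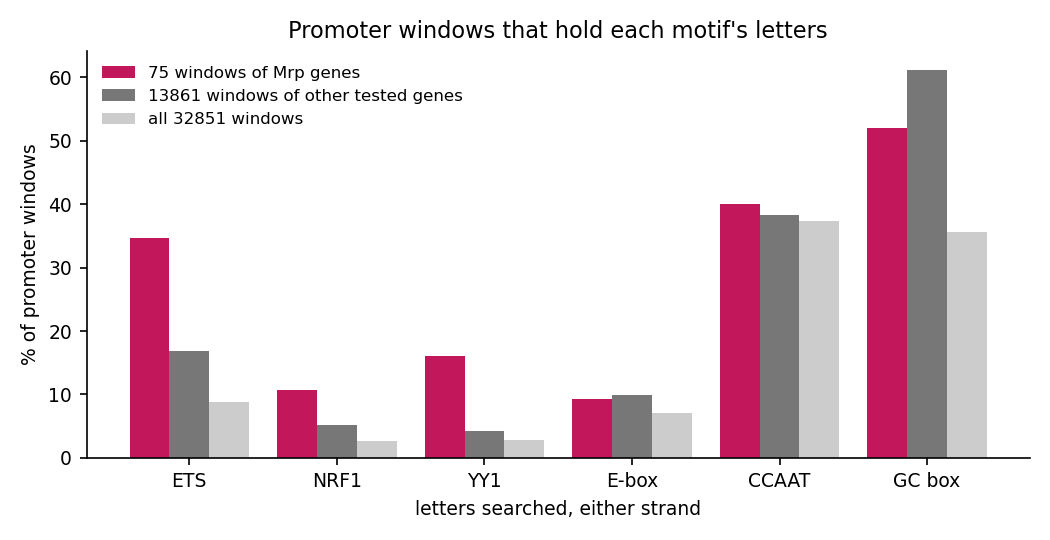
Share of 300-base promoter windows, in percent, that hold each letter string on either strand, for the 75 windows of Mrp genes, for windows of other tested genes and for all windows. ETS, NRF1 and YY1 letters stood in 34.7%, 10.7% and 16% of Mrp windows, each a larger share than in other tested genes, whereas GC-box letters stood in 52%, a smaller share than the 61.2% in other tested genes.

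The libraries were deposited as TPM, transcript abundance per kilobase scaled to 1000000 in each library, so a deposited value is a share of the library. The paper refers to an extended figure for sequencing depth, which was not at hand here. ERCC spike-in RNA was added to the samples, whether per cell or per amount of RNA is not stated in the sources used here, and the factor by which the study's normalized table differs from the deposited values was applied to each library here. These factors ran from 1 to 2.81, and an error in 1 of them moves all genes of that library together. Values are called spike-in normalized with the factor and deposited TPM without it, and on neither scale can less RNA per cell be told apart from a different mix of cells. The 6 ES cell markers examined, Pou5f1 and Nanog among them, were at 125 TPM or more in every library. Tet2 was at 96.0 to 143 TPM in WT and 15.9 to 22.2 in DKO libraries. Tet1 was at 191 to 349 and 147 to 248, so RNA counted as Tet1 was still present in DKO cells. A gene-level value does not show which exons these reads came from. The paper reports that its knockouts were screened by PCR and checked by western blot for TET1 and TET2. Summed primitive endoderm markers (5 genes) were at 57.8 and 105 TPM in WT 24 h and 44.4 and 15.6 in DKO 24 h, against 4.71 to 21.9 elsewhere, and their part in the 24 h results was not tested.

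All 78 genes were expressed in all 14 libraries, with a lowest value of 7.64 TPM. Mean TPM over the libraries had a median of 45.9 across the members, against 15.2 for protein-coding genes tested and 9.05 for all genes tested. The highest large-subunit genes were Mrpl42 (122 TPM), Mrpl24 (102) and Mrpl21 (97.3), and the lowest were Mrpl57 (8.71), Mrpl47 and Mrpl19. Among the Mrps genes, Mrps18b (110 TPM), Mrps2 (84.0) and Mrps24 (59.5) were highest and Mrps25, Mrps35 and Mrps36 lowest. The order was largely kept between libraries, with a Spearman correlation of 0.850 to 0.987 over the 91 pairs of libraries. Within this order, Mrpl42, at 147 to 196 TPM in the 4 libraries of 0 h, stood above every other member in the mean, whereas Mrps18b and Mrpl24 overlapped between libraries.

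In WT cells, mRNAs of the mitochondrial ribosome made up a smaller share of the transcriptome at every time of mTORi than before it. The 78 genes summed to 0.455% and 0.434% of all TPM in the 0 h libraries, 0.325% and 0.317% at 24 h, 0.359% and 0.299% at 72 h and 0.351% and 0.343% after 144 h. All 6 treated libraries were below both untreated ones, with an exact two-sided permutation p of 0.0714, the smallest that 6 against 2 libraries allow. With the spike-in factor the sum at 144 h was 0.383 of that at 0 h. In DKO cells the sums were 0.439% and 0.517% at 0 h, 0.315% and 0.347% at 24 h and 0.351% and 0.393% after 72 h, again with no overlap between treated and untreated libraries (exact permutation p = 0.133, the smallest for 4 against 2).

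Cytosolic ribosomal protein mRNAs made up 9.98% and 9.96% of all TPM in WT 0 h and 10.2% to 12.5% in the treated WT libraries. In DKO they made up 10.01% and 11% at 0 h and 10.1% to 11.8% under mTORi, with overlap. For every 100 TPM of the 86 cytosolic ribosomal protein genes there were 4.55 and 4.36 TPM of Mrp genes in WT 0 h, 2.74 and 2.54 at 24 h, 3.02 and 2.92 at 72 h and 2.80 and 2.87 after 144 h. In DKO these values were 4.38 and 4.70 at 0 h, 3.07 and 2.95 at 24 h and 3.49 and 3.40 after 72 h. Both DKO libraries were above both WT libraries at 24 h and at 72 h, although 2 against 2 libraries allow no exact p below 0.333. Against nuclear-encoded respiratory chain subunits the ratio moved much less, with 31.3 and 30.4 Mrp TPM per 100 in WT 0 h and 27.5 to 28.9 in the 6 treated WT libraries.

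**Figure D2:**
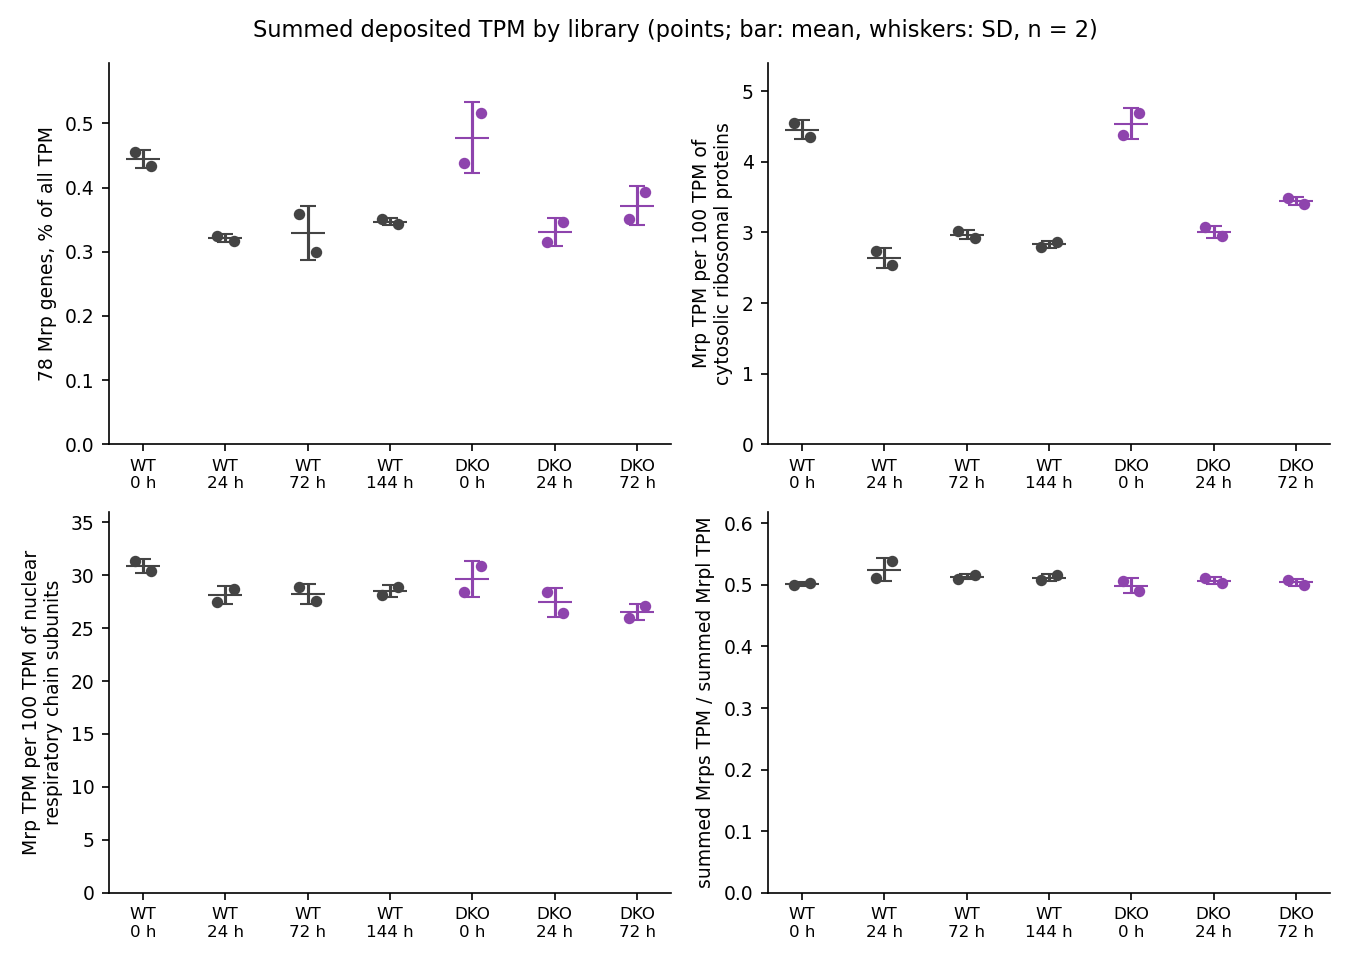
Summed deposited TPM of the 78 Mrp genes in each library (points, with the mean as a bar and the SD as whiskers, n = 2), as a percentage of all TPM, per 100 TPM of cytosolic ribosomal proteins, per 100 TPM of nuclear respiratory chain subunits, and as summed Mrps over summed Mrpl TPM. The share of all TPM was 0.434% or more in each untreated library and 0.393% or less in each treated one, whereas the Mrps to Mrpl ratio stayed between 0.491 and 0.538.

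The balance of small- and large-subunit mRNAs was compared in each library. Summed Mrps TPM over summed Mrpl TPM was 0.500 and 0.504 in WT 0 h and 0.507 to 0.538 in the treated WT libraries. The treated libraries were all above the untreated ones by a small margin (exact permutation p = 0.0714, the smallest possible). In DKO the ratio was 0.507 and 0.491 at 0 h and 0.501 to 0.511 under mTORi, and these overlapped. The direction depended on the measure. With medians in place of sums the WT ratio was 0.850 and 0.985 at 0 h and 0.834 to 0.922 under mTORi, with overlap. The DKO ratio of medians was 0.911 and 0.979 at 0 h and 0.758 to 0.905 under mTORi, all below the untreated libraries. At 144 h in WT the median log2 fold change was -1.32 for both Mrps and Mrpl genes, with 29 of 29 and 48 of 49 called lower (limma with the spike-in factor, adjusted p under 0.05), against 50.5% of all genes. At 24 h in WT 12 of 29 Mrps genes and 17 of 49 Mrpl genes were called lower, against 8.73% of all genes, with medians of -0.87 and -0.80. The difference between the subunits was not tested.

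**Figure D3:**
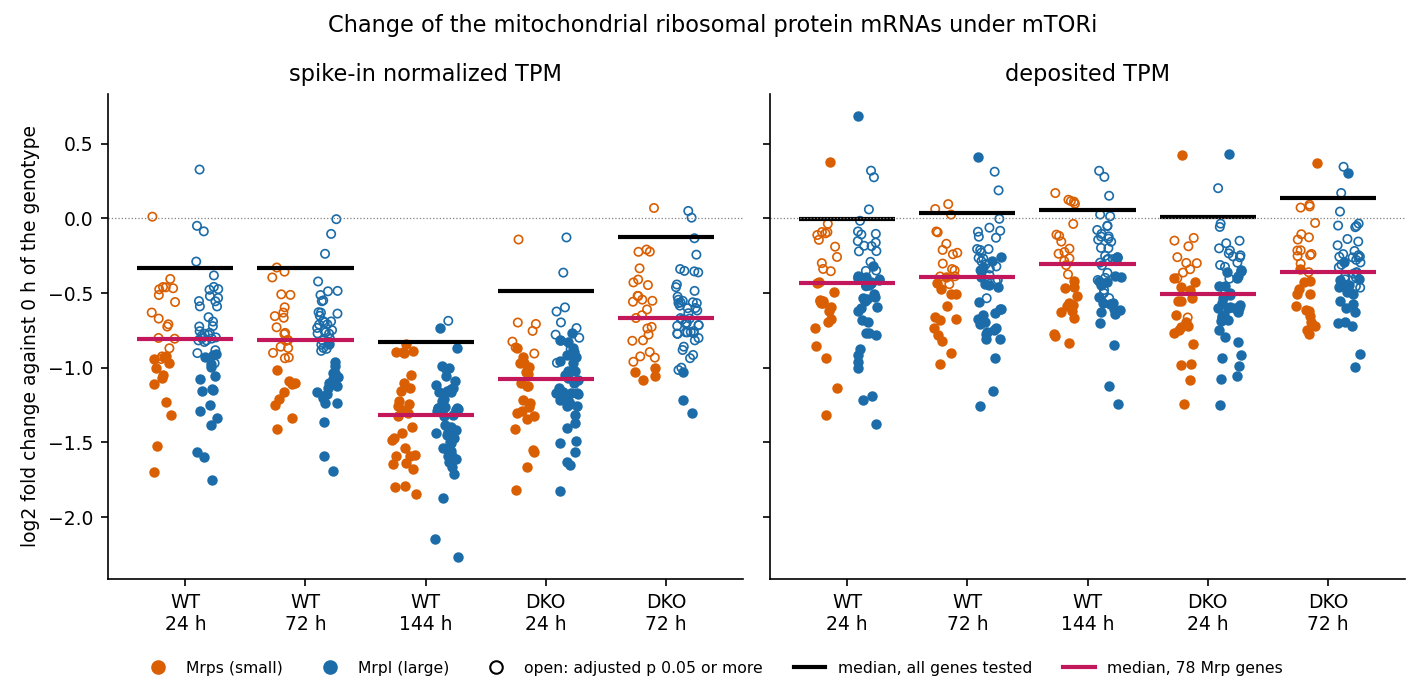
Log2 fold change of each Mrp gene against 0 h of its genotype, on the spike-in normalized (left) and deposited (right) scale. Orange points are Mrps and blue points Mrpl genes, filled where the adjusted p was under 0.05, and lines give the medians of the Mrp genes (magenta) and of all genes tested (black). In all 5 comparisons and on both scales the Mrp median lay below that of all genes, for example -1.32 against -0.83 in WT 144 h with the spike-in factor.

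At 24 h of mTORi in WT, 29 of 78 members were called lower and 0 higher (spike-in normalized, limma, Benjamini-Hochberg adjusted p under 0.05), against 8.73% of all genes tested. The median log2 fold change of the members was -0.81 and that of all genes -0.33. Among these genes were Mrpl12, the large-subunit stalk protein that binds translation factors, and Mrps12, at the decoding centre. The count fell to 8 and 6 without WT 0 h replicate 1 or 2 (3.44% and 1.96% of all genes called), and to 4 and 16 without WT 24 h replicate 1 or 2 (2.12% and 6.33%). Leaving out a library leaves 1 sample in its group, which is then assumed to vary like the other groups. The member median minus the all-gene median was -0.47 with all libraries and -0.37 to -0.60 in these fits. With the replicate number as a block within each genotype it was 57 (25.7% of all genes lower), and with only the groups compared in the fit 53 (22.7% of all genes called). On deposited TPM, 46 members were lower and 2 higher, against 14.1% and 15.8% of all genes, with medians of -0.43 for members and -0.01 for all genes.

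At 72 h in WT, 28 members were called lower and 0 higher, against 7.6% of all genes, with a member median of -0.82 and an all-gene median of -0.33. The blocked fit called 60 (25.4% of all genes), and the fit of only the groups compared 62 (28.7%). On deposited TPM 39 were lower and 1 higher, against 11.4% and 12.6% of all genes. The spike-in count was 3 and 1 without WT 0 h replicate 1 or 2 (2.5% and 0.965% of all genes called), 17 without WT 72 h replicate 1 (2.54%) and 0 without WT 72 h replicate 2 (0.367%). The gap between member and all-gene medians was -0.49 with all libraries and -0.34 to -0.66 in these fits.

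At 144 h in WT, 77 members were called lower and 0 higher. This stands beside a transcriptome in which 50.5% of all genes were called lower and the median gene fell by 0.83 on the log2 scale, so the member median of -1.32 lay 0.49 below it. The count was between 61 and 69 when 1 of the 4 WT libraries of 0 and 144 h was left out (21.6% to 35% of all genes called), with a gap between the medians of -0.39 to -0.59. It was 78 in the blocked fit (66.3% of all genes). On deposited TPM 31 members were lower and 0 higher, against 11.7% of all genes, with medians of -0.31 and 0.05. Other protein-coding genes within the members' range of TPM and transcript length (6659 genes, compared after the data had been seen) had a spike-in median of -0.97 at 144 h and -0.34 at 24 h.

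In DKO cells the members were lower at 24 h as well. There 60 of 78 were called lower and 0 higher, against 18.7% of all genes, with medians of -1.08 for members and -0.49 for all genes. The count was 18 and 27 without DKO 0 h replicate 1 or 2 (4.43% and 9.15% of all genes called), 74 without DKO 24 h replicate 1 (48%) and 22 without replicate 2 (6.34%). The gap between the medians was -0.59 with all libraries and -0.48 to -0.69 in these fits. The blocked fit called 75 (38.1% of all genes), and on deposited TPM 50 were lower and 2 higher, against 13.3% and 11.6%. With only the DKO 0 h and 24 h libraries in the fit it was 10 (2.91% of all genes called). At 72 h in DKO only 7 members were called lower, against 2.95% of all genes, and this count was 0 without DKO 0 h replicate 1, DKO 0 h replicate 2 or DKO 72 h replicate 2 (1.27%, 1.11% and 0.505% of all genes called) and 3 without DKO 72 h replicate 1 (2.1%). The gap between the medians was -0.54 with all libraries and -0.42 to -0.65 in these fits. The blocked fit called 41 (13.2% of all genes), and on deposited TPM 32 were lower and 2 higher, against 9.06% and 17.2%. With only the groups compared in the fit it was 2 (3.4% of all genes called). The member median at 72 h was -0.67 with the spike-in factor, against -0.12 for all genes.

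Over the 5 comparisons with 0 h, 72 of 78 members were below the all-gene median every time with the spike-in factor and 68 on deposited TPM, against 27.5% and 26.2% of all genes. The 3 WT comparisons share the WT 0 h libraries and the 2 DKO comparisons the DKO 0 h libraries. The genes called lower in all 5 with the spike-in factor were Mrpl18, Mrpl36, Mrpl45, Mrps7, Mrps10, Mrps12 and Mrps24, and Mrpl3 was called in none. Over all genes tested, 1.64% were called lower in all 5 and 46.9% in none. Of these members, Mrps10 was named after its values were seen. On deposited TPM 24 members were called lower in all 5 comparisons and 22 in none, against 3.85% and 76.8% of all genes.

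**Figure D4:**
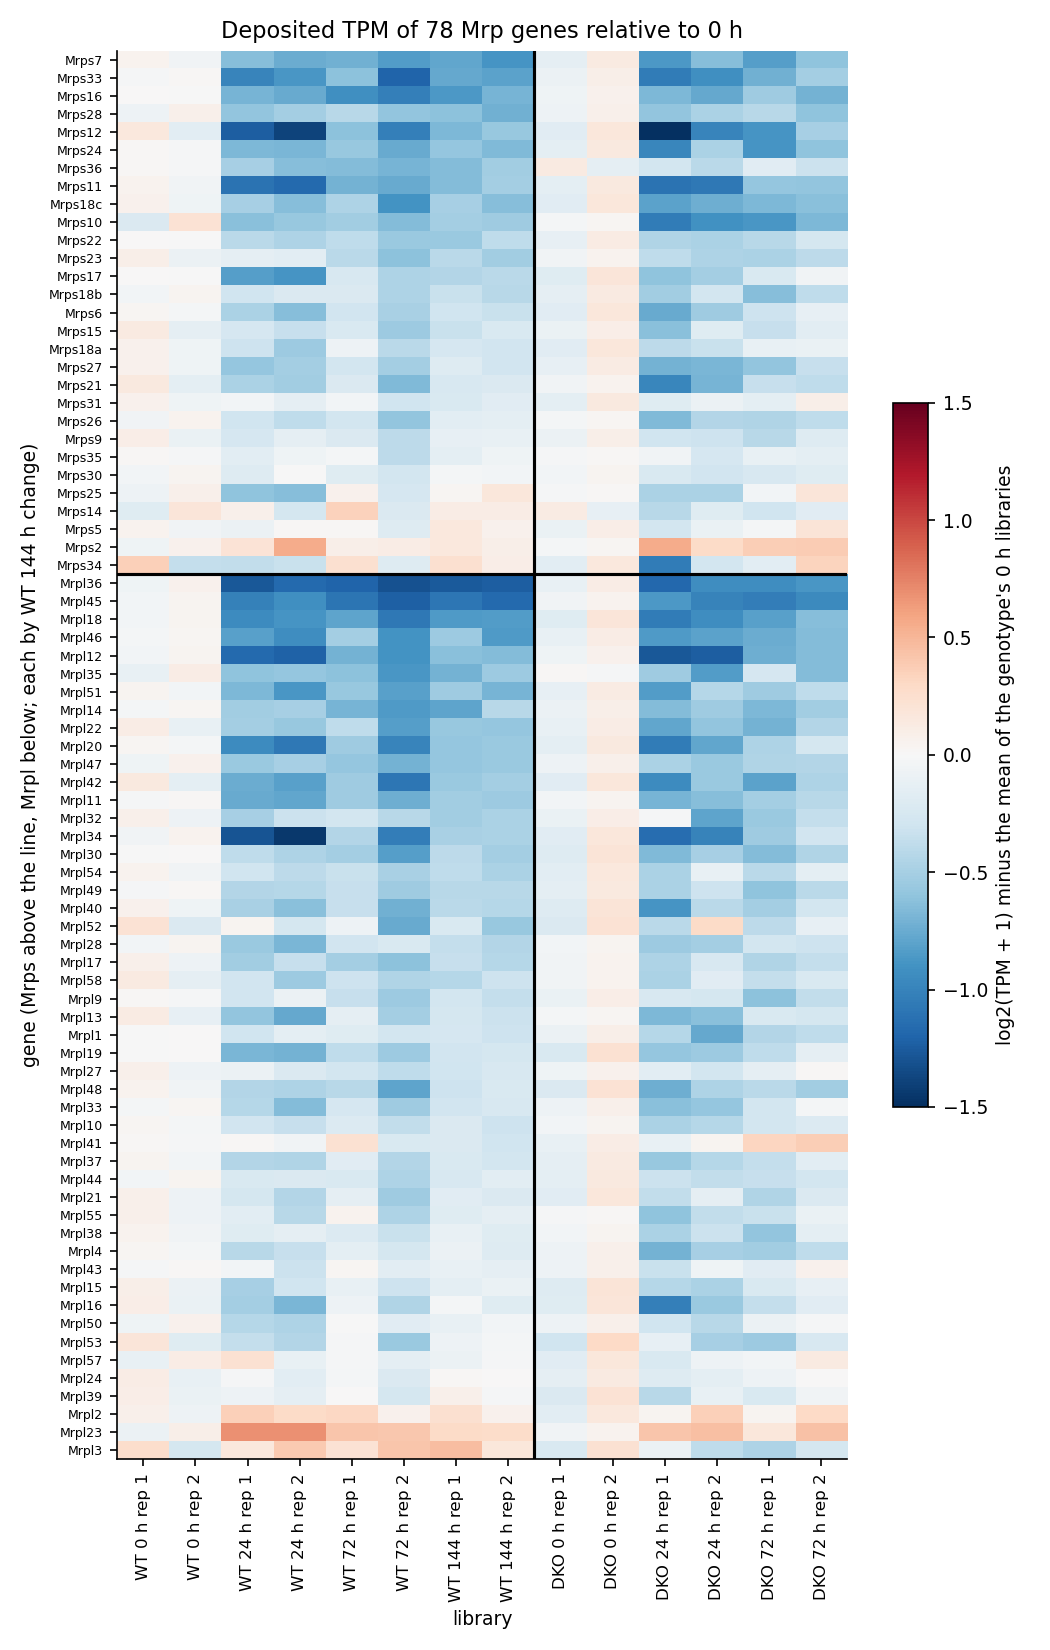
Log2(deposited TPM + 1) of each Mrp gene (rows, Mrps above and Mrpl below the line) in each library (columns), minus the mean of the 0 h libraries of that genotype. Blue is lower than at 0 h and red is higher, and most rows are blue in all treated libraries, with Mrpl36 and Mrpl45 dark and Mrpl23 red in every treated library.

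The largest falls at 144 h were in large-subunit genes. Mrpl36 (ENSMUSG00000021607.9, chr13:73328513-73332178) encodes a small conserved protein of the large subunit. Its deposited TPM was 63.7 and 69.3 in WT 0 h, 27 and 29.0 at 24 h, 28.3 and 26.3 at 72 h and 27.2 and 27.7 after 144 h. In DKO it was 59.2 and 69.2 at 0 h, 27.8 and 33.0 at 24 h and 33.1 and 34.4 after 72 h. On this scale treated and untreated libraries did not overlap in either genotype, and the treated WT libraries lay between 26.3 and 29.0. With the factor its WT values went on from 38.7 and 53.7 at 24 h to 29.1 and 27.7 after 144 h. Against 0 h it fell by 2.26 ± 0.28 (SE) on the log2 scale at 144 h with the factor (limma, adjusted p = 2.4e-05), and on deposited TPM by 1.24 ± 0.11. By the gene bounds given here, Mrpl36 starts head to head with Ndufs6, a subunit of respiratory complex I, and the 2 genes share 30 bases on opposite strands. The RefSeq start whose promoter is shown above lies further inside these bounds, after chr13:73331008.

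Mrpl45 (chr11:97315716-97329920) encodes a protein at the exit of the tunnel that anchors the ribosome at the inner membrane. It was at 89.0 and 94.9 TPM in WT 0 h, 45.1 and 48.3 at 24 h, 42.6 and 38.8 at 72 h and 43.0 and 40.3 after 144 h. In DKO it was at 87.9 and 93.9 TPM at 0 h and 43.8 to 49.5 in the 4 treated libraries. With the factor its log2 fold change in WT at 144 h was -2.15 ± 0.30 (adjusted p = 6.6e-05). Mrpl18 (chr17:12911349-12916345), a protein of the central protuberance, was at 144 and 152 TPM in WT 0 h and 69.7 to 84.7 in treated WT libraries, with a log2 fold change of -1.87 ± 0.28 at 144 h (adjusted p = 0.00011). It overlaps 645 bases of Tcp1, a chaperonin gene on the opposite strand that was at 408 TPM, and their reads may not have been fully told apart.

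A further set of genes was lowest at 24 h and higher later as a share of the library. Mrps12 (chr7:28739641-28741820) was at 75.2 and 60.5 TPM in WT 0 h, 28.0 and 25.2 at 24 h, 43.7 and 32.5 at 72 h and 41.8 and 45.1 after 144 h. In DKO it was at 66.0 and 83.3 TPM at 0 h, 25.7 and 36.8 at 24 h and 39.7 and 52.1 after 72 h. Mrpl12 (chr11:120484613-120489065) was at 115 and 121 TPM in WT 0 h, 52.1 and 50.5 at 24 h, 71.5 and 62.7 at 72 h and 75.8 and 74.9 after 144 h. In DKO Mrpl12 was at 134 and 146 TPM at 0 h, 57.5 and 58.9 at 24 h and 83.5 and 88.9 after 72 h. For both genes the later WT libraries were above both 24 h libraries and below both 0 h libraries in deposited TPM. With the spike-in factor this order was not kept, with Mrpl12 at 74.6 and 93.5 at 24 h and 81.2 and 74.9 after 144 h, and Mrps12 at 40.1 and 46.7 and then 44.7 and 45.1. Mrpl34, named after its values were seen, had the same order in deposited TPM, with 110 and 118, 45.7 and 41.0, 83.8 and 55.1, and 80.7 and 81.8 TPM at the 4 WT times.

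Over all members, both WT 144 h libraries were above both 24 h libraries in deposited TPM for 38 of 78 genes and below them for 12, against 36.8% and 28.7% of all genes. In DKO, both 72 h libraries were above both 24 h libraries for 36 members and below for 1, against 38.1% and 14.5% of all genes. With the spike-in factor the WT direction turned, with 71 members lower and 1 higher at 144 h than at 24 h, against 68% and 7.26% of all genes. In DKO 28 were higher and 0 lower at 72 h, against 24.1% and 2.45% of all genes.

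A few genes did not fall as a share of the library. Mrpl23 (chr7:142532686-142540747), a conserved protein at the tunnel exit, was at 33.5 and 38.2 TPM in WT 0 h, 58.2 and 58.3 at 24 h, 48.1 and 47.8 at 72 h and 43.7 and 43.4 after 144 h. In DKO it was at 40.8 and 44.1 TPM at 0 h, 56.7 and 58.4 at 24 h and 47.7 and 58.0 after 72 h. All treated libraries of each genotype were above its untreated ones. On deposited TPM it was called higher in WT at 24 h (log2 fold change 0.69 ± 0.10, limma adjusted p = 0.00082) and 72 h (0.41 ± 0.10) and in DKO at 24 h (0.43 ± 0.10) and 72 h (0.30 ± 0.10). With the spike-in factor it was 0.33 ± 0.28 in WT at 24 h, was not called, and was lower at 144 h (-0.73 ± 0.28, adjusted p = 0.034). A processed copy, Mrpl23-ps1, was listed at a mean of 7.96 TPM, so reads of Mrpl23 may be split between them.

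Mrps2 (chr2:28468066-28471178), a conserved protein of the small subunit, was at 68.4 and 74.6 TPM in WT 0 h, 82.6 and 105 at 24 h, 75.7 and 77.0 at 72 h and 79.8 and 76.1 after 144 h. In DKO it was at 72.3 and 74.8 TPM at 0 h and 90.1 to 108 in the treated libraries. It was called higher on deposited TPM in WT at 24 h (0.38 ± 0.12, adjusted p = 0.034) and in DKO at 24 h (0.42 ± 0.12) and 72 h (0.37 ± 0.12), and with the factor it was called lower at 144 h in WT (-0.89 ± 0.32, adjusted p = 0.026). Mrpl2, a core protein next to the peptidyl transferase centre, was at 88.1 and 79.8 TPM in WT 0 h and 87.5 to 108 under mTORi, without a call on that scale. Mrpl3, another core protein, was at 34.8 and 24.0 TPM in WT 0 h and 32.5 to 40.4 under mTORi, and in DKO at 35.4 and 49.0 at 0 h and 30.0 to 39.3 under mTORi. It was the only member not called lower with the factor at 144 h (-0.69 ± 0.33, adjusted p = 0.088), and its 0 h libraries differed by more than its treated ones.

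In the same deposited values, these genes differed most from the rest in their course over the 14 libraries, which is not a separate result. For each member, the correlation of log2 deposited TPM with each other member was taken, which is a description because the libraries share their time points. The median over all 3003 pairs was 0.67, and 2722 pairs were above 0, and pairs of other genes were not compared. The median correlation of a gene with the other members was -0.55 for Mrpl23, -0.47 for Mrps2 and -0.39 for Mrpl2, and it was 0.04 for Mrpl3 and 0.06 for Mrpl24.

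Within the large subunit, the 5 stalk genes were all called lower in WT at 144 h with the factor (median -1.45), as were 8 of 8 central protuberance genes (-1.33) and 8 of 8 exit tunnel genes (-1.30). Since 68.7% of other protein-coding genes in the members' range of TPM and length were called lower at 144 h, as were 77 of the 78 members, these counts do not set the 3 groups apart. At 24 h the calls were 2 of 5, 3 of 8 and 2 of 8, beside 8.73% of all genes and 10% of those in range. Besides Mrpl12, the stalk protein Mrpl11 was at 31.2 and 32.2 TPM in WT 0 h and 18.1 to 21.8 in treated WT libraries. Mrpl10, on which the stalk is built, went from 52.0 and 50.3 TPM to 39.5 to 44.2, a smaller change of -0.26 ± 0.08 at 144 h on deposited TPM (adjusted p = 0.037). Mrpl22 lines the tunnel and was at 74.5 and 63.3 TPM at 0 h and 38.3 to 52.4 under mTORi in WT. Mrpl44, near the tunnel exit, moved from 39.0 and 41.4 TPM to 28.8 to 35.9.

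In the central protuberance, Mrpl46 was at 40.0 and 41.7 TPM in WT 0 h and 20.9 to 28.3 under mTORi, and Mrpl38 at 62.7 and 58.3 and then 47.9 to 56.1. Mrpl58, which retains the peptidyl-tRNA hydrolase motif of a release factor, was at 58.1 and 48.0 TPM and then 35.8 to 43.3. All 3 were called lower at 144 h with the factor, and only Mrpl46 was called there on deposited TPM (-0.70 ± 0.14, adjusted p = 0.0061). Mrpl46 and Mrps11 share 413 bases on opposite strands at their starts, and their log2 TPM had a correlation of 0.91 over the libraries. The core proteins Mrpl4 and Mrpl16 had log2 fold changes of -1.15 ± 0.27 and -1.11 ± 0.28 at 144 h with the factor, and -0.14 ± 0.10 and -0.10 ± 0.19, not called, on deposited TPM.

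In the small subunit, the 16 conserved genes had a median of -1.49 at 144 h and the 10 mitochondrial ones -1.24. All 26 were called lower, beside 50.5% of all genes and 68.7% of other protein-coding genes in the members' range of TPM and length, and the difference between the medians was not tested. Mrps7, in the head of the subunit, was at 55.5 and 51.9 TPM in WT 0 h, 34.2 and 31.5 at 24 h, 32.1 and 29.6 at 72 h and 31.0 and 28.5 after 144 h, and did not overlap its 0 h level at any time. Mrps16 was at 44.8 and 44.4 TPM and then 21.4 to 27.2. Mrps6 was at 33.6 and 32.0 TPM and then 20.8 to 26.7, and Mrps22 at 50.04 and 49.5 and then 33.4 to 37.9. Mrps5, which lines the mRNA entry, was at 57.2 and 53.1 TPM and then 48.1 to 61.9, so that its libraries overlapped. Mrps34 varied between replicates, from 46.3 to 27.7 TPM within WT 0 h, and its log2 fold change at 144 h was -0.84 ± 0.30 with the factor (adjusted p = 0.026) and 0.17 ± 0.29 without.

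The mouse genome holds 3 paralogs of bacterial S18, whose proteins sit at different places of the ribosome. Mrps18c was at 66.7 and 61.1 TPM in WT 0 h and 33.8 to 46.0 in treated libraries, Mrps18b at 131 and 137 and then 97.0 to 115, and Mrps18a at 47.5 and 43.6 and then 31.0 to 43.0. On deposited TPM at 144 h the change of Mrps18c was called (-0.57 ± 0.15, adjusted p = 0.018) and those of Mrps18b (-0.38 ± 0.13) and Mrps18a (-0.27 ± 0.14) were not, and the differences between the paralogs were not tested. Mrps30 was at 33.4 and 35.3 TPM at 0 h and 28.2 to 34.2 under mTORi, with overlap. Mrps36 was at 26.0 and 25.3 TPM and then 15.5 to 17.9, although 3 Mrps36 pseudogenes at up to 3.03 TPM limit how far its reads can be assigned.

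Among the genes with the highest levels, Mrpl42 went from 181 and 147 TPM in WT 0 h to 76.6 to 114 under mTORi, and Mrps24 from 80.5 and 78.2 to 46.5 to 53.2. Mrpl24, near the tunnel exit, was at 124 and 106 TPM and then 98.1 to 116, which overlapped, and Mrpl21 at 113 and 102 and then 74.2 to 97.6. Among the lowest, Mrpl57 was at 7.89 and 9.30 TPM and then 7.64 to 10.2 and Mrps35 at 18 and 17.5 and then 13.3 to 17.3, whereas Mrpl47 went from 22.0 and 24.4 to 13.7 to 16. Mrps25 was at 14.2 and 15.7 TPM at 0 h, 9.46 and 9.25 at 24 h and 12.4 to 16.9 later. Mrpl19 was at 19.3 and 19.5 TPM and then 11.5 to 16.1. Mean level and change at 144 h were almost unrelated across the members (Spearman -0.03 over 78 genes), whereas transcript length and the same change had a Spearman correlation of 0.31, longer members falling less. Both are descriptions across genes, which are not independent replicates.

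The changes of the members were ordered alike in WT and DKO. The log2 fold changes of the 78 genes on deposited TPM had a Pearson correlation of 0.92 between genotypes at 24 h and 0.84 at 72 h, with no shared libraries. Replicates 1 and 2 of a single comparison gave 0.74 to 0.85. Those values come from single libraries and the genotype values from means of 2, so they are not like measures. No such correlation was taken over all genes. At 24 h 43 members were called lower on deposited TPM in both genotypes, which is 93.5% of the 46 in WT and 86% of the 50 in DKO. Over all genes these shares at 24 h were 73.1% and 77.2%. At 72 h 29 were called in both, 74.4% of the WT and 90.6% of the DKO calls, against 62.5% and 78.8% over all genes. With the spike-in factor the overlap at 24 h was 29 members, which is 100% of the WT and 48.3% of the DKO calls, against 88.0% and 41.1% over all genes. At 72 h it was 7 members with the factor, 25% of the WT and 100% of the DKO calls, against 32.3% and 83.2%.

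**Figure D5:**
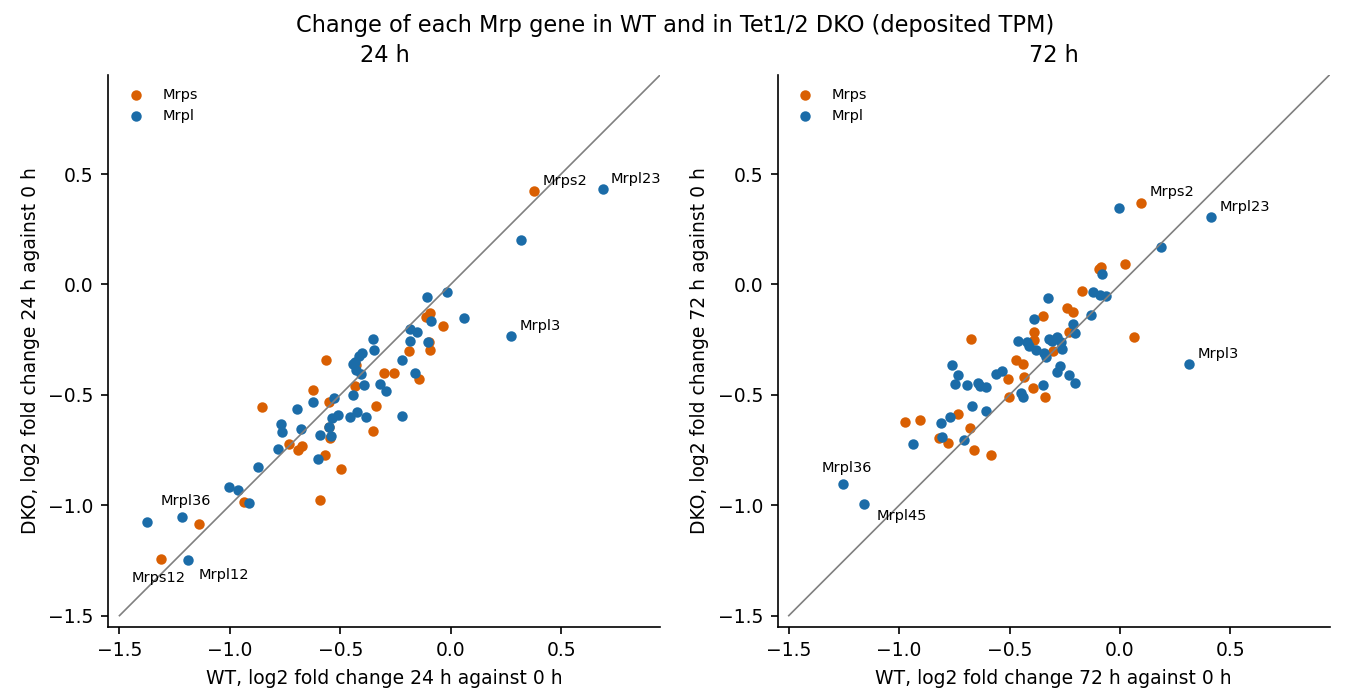
Log2 fold change of each Mrp gene against 0 h on deposited TPM, WT on the x axis and DKO on the y axis, at 24 h (left) and 72 h (right), with the line of equal change. Orange points are Mrps and blue points Mrpl genes, and most lie in the lower left along the line (Pearson correlation 0.92 and 0.84 over 78 genes), with Mrpl23 and Mrps2 at the upper right and Mrpl3 right of the line.

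Between genotypes at the same time, 0 members were called at 0, 24 or 72 h with the spike-in factor (limma, adjusted p under 0.05), against 0.0439%, 0.0439% and 0.329% of all genes. At an unadjusted p under 0.05 there were 7, 0 and 40 members, against 8.35%, 4.14% and 23.0% of all genes. At 72 h all 78 were higher in DKO with the factor, as were 91.7% of all genes, with a median of 0.62 beside an all-gene median of 0.49. The gap of 0.13 between these medians rested on single libraries, at 0.27 without WT 72 h replicate 1 and -0.026 without WT 72 h replicate 2, and 0.17 and 0.035 without DKO 72 h replicate 1 or 2. The largest differences were in Mrpl35 (1.06 ± 0.36, adjusted p = 0.16), Mrpl20 (0.98 ± 0.27, adjusted p = 0.12) and Mrpl33 (0.95 ± 0.27, adjusted p = 0.13), all large-subunit proteins, and the smallest in Mrpl9 (0.12 ± 0.30), Mrps28 (0.13 ± 0.31) and Mrps18b (0.16 ± 0.27). Without the factor the last 3 were lower in DKO, at -0.28, -0.27 and -0.25. On deposited TPM 4 members were called higher in DKO at 72 h, against 3.17% of all genes. They were Mrpl10 (0.40 ± 0.08, adjusted p = 0.031), Mrpl12 (0.36 ± 0.08, adjusted p = 0.044), Mrpl33 (0.53 ± 0.12, adjusted p = 0.038) and Mrps16 (0.48 ± 0.10, adjusted p = 0.029). Mrpl10 was at 54.2 and 57.1 TPM in DKO and 44.2 and 39.5 in WT at 72 h, and already at 63.8 and 68.0 against 52.0 and 50.3 at 0 h.

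The response to mTORi itself, as DKO change minus WT change, was called for 0 members at 24 h (0.00548% of all genes) and 0 at 72 h (0% of all genes), and 0 members had an unadjusted p under 0.05 at either time by limma, against 1.22% and 0.993% of all genes. The median difference was -0.26 at 24 h and 0.20 at 72 h, beside -0.19 and 0.21 for all genes. At 72 h the extremes were Mrpl3 (-0.56 ± 0.47), Mrps14 (-0.19 ± 0.43) and Mrpl4 (-0.12 ± 0.39) at the low end and Mrps36 (0.55 ± 0.46), Mrpl20 (0.52 ± 0.38) and Mrps16 (0.47 ± 0.44) at the high end. The SE of these differences ran from 0.38 to 0.47.

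Genes of related function were counted in the same fit, in which 8.73% of all genes at 24 h and 50.5% at 144 h were called lower with the factor in WT. Of other protein-coding genes in the members' range of TPM, 67.2% were called lower at 144 h. Of 83 nuclear-encoded respiratory chain subunits tested, 34 were called lower in WT at 24 h and 79 at 144 h, with medians of -0.75 and -1.25, and on deposited TPM 31 were lower and 2 higher at 144 h. Of 86 cytosolic ribosomal proteins, 6 were lower at 24 h and 55 at 144 h, with medians of -0.15 and -0.75, shares of 6.98% and 64.0% that lie near these backgrounds. On deposited TPM 21 were higher and 5 lower at 24 h, against 15.8% and 14.1% of all genes, and 16 were higher and 5 lower at 144 h, against 15.6% and 11.7%. The 5 mitoribosome proteins with other symbols were all called lower at 144 h with the factor, with the largest fall in Gadd45gip1 (-1.52), and 0 were called on deposited TPM (limma), where the median was -0.19. Of 26 genes for assembly of the mitochondrial ribosome, 0 were called at 24 h (5 at an unadjusted p under 0.05, limma) and 21 at 144 h, with a median of -0.96 with the factor and 0.01 on deposited TPM. The 15 mitochondrial translation factors gave 2 lower at 24 h and 13 at 144 h. Of the 13 mRNAs made from mitochondrial DNA, 4 were lower at 24 h and 10 at 144 h, and on deposited TPM 4 and 1. The rRNAs of the mitochondrial ribosome were at 4.42 to 639 TPM in sum, with 88.1 and 639 in the replicates of WT 72 h, and are not compared because rRNA was depleted from the libraries. For the 10 genes of mitochondrial transcription and DNA maintenance and the 10 regulators of mitochondrial genes the counts at 144 h were 6 and 7, which do not stand apart from the share of all genes.

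The promoter letters shown above were set beside the changes. The 12 genes with YY1 letters had a median log2 fold change of -1.58 at 144 h in WT with the factor and the 57 genes with a window but without them -1.30, and on deposited TPM the medians were -0.56 and -0.29. For the ETS letters the medians were -1.39 with and -1.33 without, and for the NRF1 letters -1.36 and -1.38. For the other strings searched they were -1.58 and -1.35 for the E-box (5 and 64 genes), -1.43 and -1.28 for the GC box and -1.29 and -1.40 for CCAAT. On deposited TPM the medians were -0.370 and -0.315 for ETS, -0.345 and -0.365 for NRF1 and -0.57 and -0.34 for the E-box. There they were -0.41 and -0.27 for the GC box and -0.27 and -0.38 for CCAAT. Genes can stand in more than 1 of these groups, as Mrpl36 does for YY1 and the E-box. Mrpl36 carries YY1 letters on the opposite strand, Mrpl34 and Mrpl3 carry ETS letters and differ in their course. These medians are descriptions without a test.

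Positions may limit how reads were assigned for some members. By gene bounds, another annotated gene at any level overlapped 41 of them, on the opposite strand for 35 and on the same strand for 13. These partners ranged from genes near 0 TPM, such as Oaz3 (0.060 TPM) at Mrpl9, to Tcp1 (408 TPM) at Mrpl18. By the same bounds, 25 members had a head-to-head partner whose start lay within 500 bases, and starts that lie apart need not share reads. Neither count was made over all genes.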

How the data were processed

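Total RNA of E14 cells in 14 libraries (7 groups, 2 replicates each, grouped by GEO's labels) was sequenced after rRNA depletion. The authors trimmed reads with cutadapt (2.4), aligned them to mm10 with STAR and quantified GENCODE VM19 genes with StringTie (2.7.3a and 2.0 in the submitters' processing notes). The deposited values are TPM, summed here per gene identifier. Read depth was not at hand here, so no counting error is given. The spike-in factor of each library was the median ratio of the authors' normalized table (its first 1999 entries) to the deposited TPM, over genes of at least 1 TPM.

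Values were analysed as log2(TPM + 1), a scale that understates changes of low genes, for 18232 genes whose spike-in normalized TPM averaged 1 or more. All 7 groups were fitted together with limma 3.58.1 (R 4.3.3, lmFit and eBayes with trend), and p-values were adjusted by Benjamini-Hochberg over all genes (threshold 0.05). The script was tested on simulated data. Ratios were compared by exact two-sided permutation tests.

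The genes named are a list by role, the 3 highest and 3 lowest members of each subunit by mean TPM, the 3 largest and 3 smallest changes in 3 comparisons (WT at 144 h, DKO against WT at 72 h, the difference of responses at 72 h) and members called against the main direction. Members and gene lists were chosen with earlier results of these data known. Marker lists also covered fibroblasts (summed TPM 1.29 to 17.7), trophectoderm (2.96 to 7.04), mesendoderm (3.71 to 8.31) and neuroectoderm (2.29 to 9.86).

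The study's reporting summary states that time points of a replicate were processed in parallel. Replicate differences had correlations of 0.0622 to 0.399 within WT and 0.222 to 0.341 within DKO, and of -0.501 to 0.116 between genotypes, so the numbers pair libraries within a genotype, and the blocked fit was made there.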

Additional observations from a re-analysis of the deposited data

How the results depend on the processing

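Alternatives were the deposited TPM without the factor, a pseudocount of 0.1, no filter or a mean of at least 5, no trend, only the groups compared in the fit, a replicate block, and each library left out in turn. The all-gene sets beside the members, the comparisons with 24 h and part of the gene-wise alternatives were added after seeing the data. Counts of called members within 1.5 times of those reported are not repeated. Without the filter the counts were 18 (WT 24 h), 11 (WT 72 h) and 4 (DKO 72 h), against 2.73%, 1.87% and 1.58% of all genes called. With only the groups compared they were 53 (WT 24 h), 62 (WT 72 h), 10 (DKO 24 h) and 2 (DKO 72 h), against 22.7%, 28.7%, 2.91% and 3.4% of all genes. Without trend the count was 2 (DKO 72 h), against 3.17%. On deposited TPM the counts were 48 (WT 24 h), 31 (WT 144 h), 34 (DKO 72 h) and 4 (DKO against WT at 72 h). They hold both directions together, against 29.9%, 27.3%, 26.3% and 4.01% of all genes. The replicate block within genotype gave 57 (WT 24 h), 60 (WT 72 h) and 41 (DKO 72 h), against 30.2%, 28.3% and 18.5% of all genes in either direction. A block across all libraries gave 31, 31, 77, 63 and 8 for the 5 comparisons with 0 h, against 10.2%, 8.55%, 51%, 19.5% and 3.43%. In it, equal numbers do not pair the genotypes. With the numbers crossed between genotypes, chosen after the negative correlations were seen, the block gave 51, 50, 78, 71 and 24. Of all genes tested, 24.1%, 21.3%, 62.8%, 33.1% and 14.2% were called there. For DKO against WT at 72 h it gave 12 (12.2% of all genes tested). Leaving out 1 library gave 4 to 16 (WT 24 h), 0 to 17 (WT 72 h), 61 to 69 (WT 144 h), 18 to 74 (DKO 24 h) and 0 to 3 (DKO 72 h). The cause of these shifts was not tested, beyond the fewer libraries or genes fitted.

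With subunits taken by structure the ratio of small to large summed TPM was 0.454, 0.471, 0.460 and 0.459 at the WT times and 0.453, 0.455 and 0.453 at the DKO times, and with medians in place of sums 0.917, 0.847, 0.878 and 0.881 and then 0.945, 0.786 and 0.863, so that the direction of the change with mTORi turned. On deposited TPM the sign turned for 3 (WT 24 h), 6 (WT 72 h), 10 (WT 144 h), 3 (DKO 24 h) and 5 (DKO 72 h) of the 78 members, and 9 of the 10 had been called lower with the factor. The log2 fold change there was 0.32 for Mrpl2, 0.27 for Mrpl3 and 0.060 for Mrpl57 in WT at 24 h, 0.19 for Mrpl2, 0.31 for Mrpl3, 0.41 for Mrpl23, 0.062 for Mrps14, 0.095 for Mrps2 and 0.025 for Mrps34 in WT at 72 h, 0.20 for Mrpl2, 0.43 for Mrpl23 and 0.42 for Mrps2 in DKO at 24 h, and 0.17 for Mrpl2, 0.045 for Mrpl57, 0.072 for Mrps25, 0.091 for Mrps34 and 0.080 for Mrps5 in DKO at 72 h. In WT at 144 h it was 0.15 for Mrpl2, 0.28 for Mrpl23, 0.014 for Mrpl24, 0.32 for Mrpl3, 0.025 for Mrpl39, 0.11 for Mrps14, 0.12 for Mrps2, 0.098 for Mrps25, 0.17 for Mrps34 and 0.12 for Mrps5. For DKO against WT at 72 h it was -0.20 for Mrpl2, -0.20 for Mrpl24, -0.16 for Mrpl3, -0.17 for Mrpl47, -0.059 for Mrpl49, -0.28 for Mrpl9, -0.047 for Mrps14, -0.25 for Mrps18b, -0.27 for Mrps28 and -0.11 for Mrps34. Mrpl39 and Mrpl49 were named after their values were seen. For the comparisons with 0 h at 24 and 72 h, fits without 1 library were read for only part of the named genes, without Mrpl2 and Mrps14. Among those read, leaving out 1 library gave ranges that crossed 0 with the factor for Mrpl3 (-0.38 to 0.21) and Mrps2 (-0.35 to 0.37) in WT at 24 h, Mrpl3 (-0.37 to 0.16) and Mrpl23 (-0.099 to 0.088) in WT at 72 h, Mrpl23 (-0.46 to 0.21) and Mrps2 (-0.63 to 0.35) in DKO at 24 h, and Mrpl23 (-0.13 to 0.14) and Mrps2 (-0.20 to 0.34) in DKO at 72 h. For DKO against WT at 72 h they were -0.055 to 0.30 (Mrpl9), -0.00098 to 0.72 (Mrps14), -0.035 to 0.36 (Mrps18b), -0.23 to 0.50 (Mrps28), -0.019 to 0.45 (Mrpl24) and -0.038 to 0.48 (Mrpl47), and for the difference of responses at 72 h -0.55 to 0.17 (Mrps14) and -0.33 to 0.081 (Mrpl4).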
